A study of Mus musculus with 18 samples.

Results

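Troponin is the calcium switch of striated muscle. Its inhibitory subunit, troponin I, holds actin and myosin apart at rest, troponin T ties the complex to tropomyosin, and troponin C binds the calcium that releases the block. Each subunit has isoforms made from separate genes. The developing heart makes the slow skeletal isoform of troponin I from Tnni1 and exchanges it for the cardiac isoform from Tnni3, which carries an extra N-terminal stretch that protein kinase A phosphorylates. The genes described here are 6 of the 35843 Ensembl genes in the count matrices, taken by name: Tnni1 (ENSMUSG00000026418), Tnni3 (ENSMUSG00000035458), the slow skeletal, cardiac and fast skeletal troponin T genes Tnnt1 (ENSMUSG00000064179), Tnnt2 (ENSMUSG00000026414) and Tnnt3 (ENSMUSG00000061723), and Tnnc1 (ENSMUSG00000091898), the troponin C gene of heart and slow muscle. The choice used names and no threshold on a measured value, and each had UMIs (unique molecular identifiers, 1 per captured molecule) in all 18 samples.

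Cells came from hearts of Myh6/Esr1-Tomato mice, in which the CM promoter of Myh6 drives an inducible recombinase and a red reporter marks the recombined cells. The 12 wild-type samples, each 1 nanowell chip (ICELL8), were 6 chips of P28 and 2 of each earlier stage, P4, P7 and P14 (postnatal days). Both chips of P4, and both of P7, held cells of the same 2 animals by the well reports, whereas each P14 chip held 1 mouse. P4 and P7 hearts were minced and digested with a kit, and P14 and P28 hearts were digested by Langendorff perfusion, so age and digestion cannot be told apart between P7 and P14. At P28 the well reports name chips 1 and 5 as the cardiomyocyte (CM) fraction and chips 2 and 6 as the non-CM (NCM) fraction of the same pairs of mice, and give chips 3 and 4, from 1 animal, no fraction. The 6 knockdown samples were P28 chips that mixed cells of mice given lentivirus at P1 with a short hairpin against Jun (shJun), an AP-1 transcription factor gene, or with a non-targeting hairpin (shNT). The reports named 2 animals per hairpin.

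Of 19822 passing cells, 12829 were wild type and 6993 came from knockdown chips. A chip gave 505 to 1467 passing cells and 5568908 to 79300417 UMIs of nuclear genes, with 20.7 to 75.4% of its UMIs from mitochondrial genes. Between 0 and 39.5% of the cells of a chip lay in clusters left without a class name, by the marker limits or by the further naming rules given with the processing. Some of these clusters held CM markers, summed over the 8 genes, at or near CM-like levels and are not in the CM-like sums. They were 250 and 242 cells of shNT animal 2 (60171 and 76712 CPM of CM markers) and 205 cells of shJun animal 2 (76508), and a cluster of 107 cells of shJun animal 1 that was named mural-like stood at 78354. CM-like clusters of the knockdown had 64532 to 83514. The clusters of 242 and 205 cells scored highest for the CM markers but had median UMIs of 4494 and 3122, and the rule on low depth left them unnamed. At P4 an unnamed cluster of 512 cells had 15798, against 36131 in the CM-like cluster. At P7 an unnamed cluster of 673 cells had 7944, against 59006 in the CM-like cluster of 39 cells. The CM-like clusters of P14 had 16826 and 54171, so the name does not mark 1 level across stages. With CMs called cell by cell instead of by cluster, sums held 464 and 643 cells at P4, 171 and 373 at P7, and 45 and 292 at P14. TDtomato had 671 to 7735 UMIs on each wild-type chip but 0 to 9 on each knockdown chip, although the labels give both the same strain. Well barcodes come from a fixed set, and 4890 of 5051 were used on more than 1 chip. CMs are called CM-like here because they were named from 8 CM markers that do not include the troponins. All 8 were detected in every sum of CM-like cells that entered a test.

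In GRCm38 the genes lie in troponin I and T pairs. Tnni1 (chr1:135779434-135810989, plus strand) and Tnnt2 (chr1:135836354-135852260, plus strand) are 25364 bases apart with Lad1 between them. Tnnt1 (chr7:4504570-4516382, minus strand) lies 1922 bases from Tnni3 (chr7:4518305-4524229, minus strand) with no annotated gene of the matrices wholly between them. Tnnt3 (chr7:142498836-142516009, plus strand) is 54425 bases from the fast troponin I gene Tnni2, and Tnnc1 lies alone at chr14:31208312-31211729 on the plus strand. Their levels are given below by subunit, and no test of neighbours against each other was made.

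The 250 bases before the RefSeq start of the 2 partners of the switch, and of Tnnt2 beside Tnni1, are shown because levels of these genes carry the results. RefSeq promoter entries (GRCm38.p6) matched 5 of the 6 genes, and each sequence is written 5′ to 3′ on the strand of its gene, with matches on either strand to the GATA motif GATAA, the MCAT motif CATTCCT, the AP-1 motif TGANTCA or the TATA motif TATAAA in capitals. They are chr1:135799171-135799420 (Tnni1, first of 2 entries), chr7:4522529-4522778 (Tnni3) and chr1:135836084-135836333 (Tnnt2, first of 2 entries).
Tnni1: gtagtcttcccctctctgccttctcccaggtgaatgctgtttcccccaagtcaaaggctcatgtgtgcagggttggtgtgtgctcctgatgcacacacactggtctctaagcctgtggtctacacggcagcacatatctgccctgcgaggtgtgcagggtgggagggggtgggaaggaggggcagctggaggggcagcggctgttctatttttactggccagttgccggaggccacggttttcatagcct
Tnni3: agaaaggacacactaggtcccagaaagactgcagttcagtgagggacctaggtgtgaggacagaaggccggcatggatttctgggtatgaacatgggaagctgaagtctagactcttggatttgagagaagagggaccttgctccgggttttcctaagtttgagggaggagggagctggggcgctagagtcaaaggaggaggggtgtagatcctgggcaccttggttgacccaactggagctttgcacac
Tnnt2: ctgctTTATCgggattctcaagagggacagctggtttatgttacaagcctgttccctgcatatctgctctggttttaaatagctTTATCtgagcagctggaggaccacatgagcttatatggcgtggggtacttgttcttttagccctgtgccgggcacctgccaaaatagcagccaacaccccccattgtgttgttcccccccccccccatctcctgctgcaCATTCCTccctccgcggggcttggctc
The Tnnt2 window held 2 GATAA matches, at 245 and 166 bases before the start, and 1 match to CATTCCT at 27 bases. Over all 32851 promoter entries of this length, 22.6% held GATAA and 4.51% held CATTCCT. The windows of Tnni1 and Tnni3 held none of the 4 motifs. TGANTCA was in none of the windows of the 5 genes and in 6.75% of all windows, while TATAAA, in 12.4% of all, stood 30 bases before the start of Tnnt1. These are letter matches only.

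In CM-like cells Tnni1 was read in many UMIs on every chip of P4 and P7 and was close to 0 from P14 on, while Tnni3 was abundant at every stage. UMIs were summed over the CM-like cells of each chip, and sums of at least 10 cells were tested. At P4 the sums of 154 and 170 cells held 15849 and 32012 Tnni1 UMIs, or 2915 and 3539 CPM (UMIs per 1000000 UMIs of nuclear genes, with no further scaling). At P7 the sums of 16 and 23 cells held 896 and 1448, or 1036 and 1230 CPM. At P14, 295 and 147 cells held 5 and 0 UMIs. That was 1.15 CPM in the first mouse, and the 0 in the second allows up to 1.73 CPM (3 counts). At P28, chips 1, 3 and 5, with 948, 645 and 677 CM-like cells, held 12, 78 and 122 UMIs, or 1.24, 2.89 and 23.1 CPM. The stages from P4 to P14 therefore did not overlap, and the P28 chips spread across an order of magnitude with chip 5 on top.

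**Figure D1:**
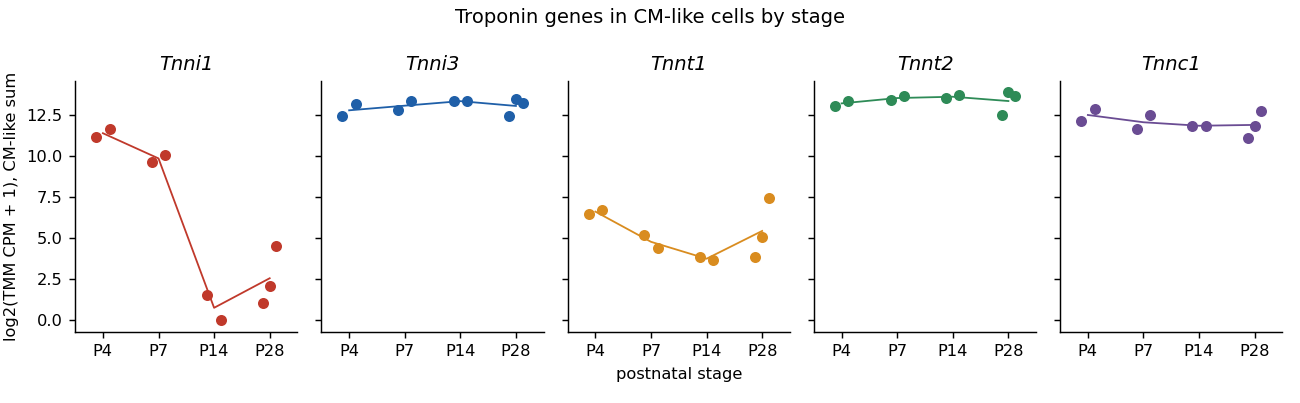
Levels of 5 troponin genes in sums of CM-like cells, as log2(TMM CPM + 1), CPM scaled by the trimmed mean of M values, by postnatal stage. Each point is the sum of 1 chip (2 at P4, P7 and P14, 3 at P28) and the line joins the stage means. On this scale Tnni1 drops between P7 and P14 whereas Tnni3, Tnnt2 and Tnnc1 stay near one level. Chip 5 is the highest P28 point for Tnni1 and Tnnt1.

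In the fit over 14004 genes (quasi-likelihood F test of edgeR, p-values adjusted after Benjamini and Hochberg), Tnni1 was 1 of 5 tested members called between P7 and P14, where 2.45% of all genes were called. It fell by 9.60 on the log2 scale (SE 1.25, adjusted p = 0.000617 by edgeR). It also was the member called from P4 to P14, with a log2 change of -11.13 ± 1.30 (SE, adjusted p = 0.000304 by edgeR, 1.36% of all genes called), and from P4 to P28, at -8.32 ± 0.91 (SE, adjusted p = 5.03e-05 by edgeR, 2.3% called). These 3 calls held in all 18 alternative fits. Of these fits 2 are the same, since the limit of 20 cells per sum leaves out only the first P7 chip. The sizes rest on 0 and 5 UMIs at P14 and shift with the fit, from -17.3 to -10.5 for P14 against P4. The step from P4 to P7, -1.54 ± 0.81, did not pass (adjusted p = 0.407 by edgeR, 0.0643% of genes called). Nor did the step from P14 to P28, +2.81 ± 1.10 (adjusted p = 0.617 by edgeR). For that last step no gene was called at all by edgeR, against 981 at an unadjusted p under 0.05 and 39 by DESeq2. Leaving out P28 chip 5 reduced the Tnni1 step to +0.90, and without the filter on low counts it was called (adjusted p = 0.0192).

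Tnni3, whose product is the cardiac troponin I measured in blood after heart injury, was called in no stage contrast. Its levels in CPM were 7017 and 10167 in the P4 sums, 9092 and 12044 in the P7 sums, 6353 and 7677 in the P14 sums and 6529, 9815 and 10147 on P28 chips 1, 3 and 5. The ranges of all stages overlapped except those of P7 and P14. From P4 to P14 the change was +0.51 ± 0.54 on the log2 scale with a 95% interval of -0.61 to 1.64 (adjusted p = 0.698 by edgeR), and from P4 to P28 it was +0.28 ± 0.50 with an interval of -0.75 to 1.31 (adjusted p = 0.877 by edgeR). Both intervals include changes in either direction. In TMM CPM, the scale of the fit, Tnni3 was at 5542 and 9102 in the P4 sums and at 10444 and 10473 in the P14 sums. The CPM above went down between these stages, so the sign of that change depends on the scaling.

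The switch is most direct as a share within each sum, since both genes are then read from the same cells and depth. It is a share of captured UMIs and is not corrected for a difference in capture between the genes. Tnni1 made up 29.3% and 25.8% of Tnni1 plus Tnni3 UMIs at P4, and 10.2% and 9.27% at P7. It was 0.0181% and 0% at P14, where the exact 95% interval of the 0 reaches 0.0277%. At P28 it was 0.0189%, 0.0295% and 0.227% on chips 1, 3 and 5. The log2 ratio of Tnni1 to Tnni3 (0.5 added to each) was at least -3.29 in the 4 sums of P4 and P7 and at most -8.77 in the 5 sums of P14 and P28. Mean log2 ratios differed by 9.66, with p = 0.0159 in a two-sided exact permutation test over 126 splits, the smallest that 4 against 5 sums can give. The split by age is also the split by digestion. Marker levels of other cells moved with it. Summed over 5 atrial markers, of which at least 2 were detected in each sum, P4 and P7 sums held 240 to 23499 CPM and P14 and P28 sums 1.73 to 540. For 8 endothelial markers, all detected, the ranges were 320 to 653 and 750 to 2923, for 6 erythroid markers 252 to 1993 and 3490 to 86203, and for 8 mural markers, of which at least 4 were detected, 135 to 399 and 466 to 794. The 8 CM markers themselves were at 35315 to 63376 in P4 and P7 sums and 20792 to 33127 in P14 and P28 sums. Their part in the result was not tested, but without the atrial-like cells the ratio differed by 9.79.

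Most single CM-like cells of P4 and P7 held UMIs of both genes. At P4, 151 of 154 cells (98.1%, exact 95% interval 94.4 to 99.6) and 168 of 170 (98.8%, 95.8 to 99.9) had UMIs of both genes, and at P7 14 of 16 and 23 of 23 did. At P14, 5 of 295 and 0 of 147 cells had a Tnni1 UMI beside Tnni3, and at P28 10 of 948, 26 of 645 and 38 of 677 on chips 1, 3 and 5. No CM-like cell of any of these chips had Tnni1 UMIs without Tnni3. Among P4 cells of other named classes, 94.3 to 97.9% also had a Tnni3 UMI and 70.5 to 79.5% a Tnni1 UMI. UMIs of both genes in a cell therefore do not show that the cell expressed both. Since depth differed, with median UMIs per cell between 5366 and 49182, cells were also thinned to 1000 UMIs. Both genes were then seen in 75.3% and 82.4% of P4 cells, 31.3% and 65.2% of P7 cells, no P14 cell, and 0.106%, 0.155% and 1.48% of P28 cells.

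Cells of 1 chip differed widely in the balance of the isoforms. Among P4 cells with at least 10 UMIs of both genes together, the median Tnni1 share was 25.9% (quartiles 15.5 and 37.0, 150 cells) and 23.2% (15.9 and 31.6, 170 cells). In 15 and 4 of them Tnni1 exceeded Tnni3. At P7 the medians were 6.11% and 7.93% over 16 and 23 cells, below the lower quartile of both P4 chips, and no cell passed 50%. On the first P7 chip 33.3% of all Tnni1 UMIs came from 1 cell, so its sum depends on few cells. From P14 on every median was 0. On P28 chip 5, 3 of 633 cells held Tnni1 shares of 10% or more, and on the other P14 and P28 CM-like sums none did.

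**Figure D2:**
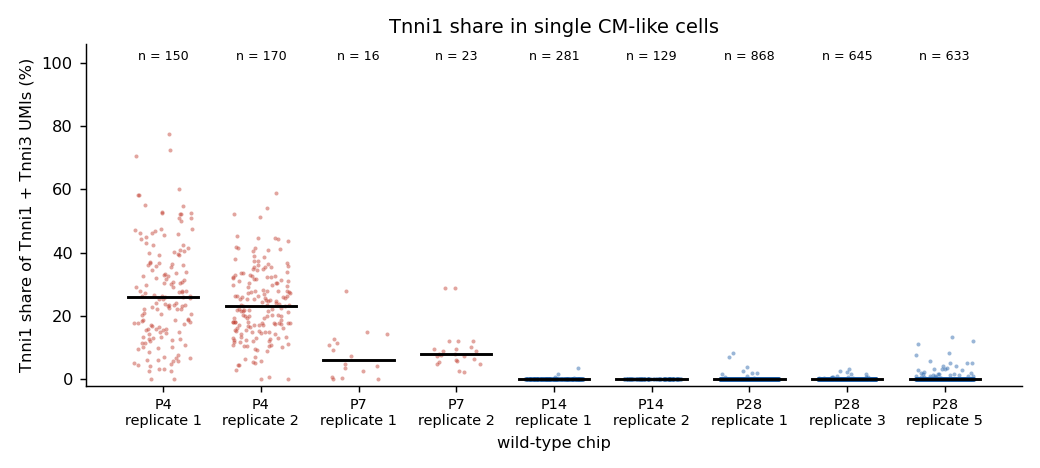
Tnni1 share of Tnni1 plus Tnni3 UMIs in single CM-like cells with at least 10 UMIs of both genes together, by wild-type chip. Each point is 1 cell, the black line is the median and n is the number of cells; medians are 25.9 and 23.2% at P4, 6.11 and 7.93% at P7 and 0 on every P14 and P28 chip.

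Most troponin T UMIs of CM-like cells came from the cardiac gene. Tnnt2 levels in CPM were 10901 and 11757 in P4 sums, 13947 and 14964 in P7 sums, 7115 and 9951 in P14 sums and 6732, 13154 and 13682 on the P28 chips. No contrast of Tnnt2 was called, and its log2 changes between stages lay from -0.15 to 0.40 with SEs of 0.50 to 0.55. In CPM the P14 sums lay below those of P4 and P7 without overlap. In TMM CPM, the scale of the fit, Tnnt2 was at 11698 and 13575 at P14, against 8609 and 10526 at P4 and 10913 and 13025 at P7. The direction of its change to P14 therefore depends on the scaling. The slow isoform Tnnt1 was read at 113 and 119 CPM in P4 sums, 45.1 and 22.9 in P7 sums, 8.07 and 8.65 in P14 sums, and 15.5, 28.2 and 178 on P28 chips 1, 3 and 5. P4, P7 and P14 did not overlap, while P28 ranged from below P7 to above P4. Its log2 change from P4 to P14 was -2.96 ± 0.86 and narrowly missed the threshold (adjusted p = 0.0885 by edgeR, and 0.0385 by DESeq2). It passed in 5 of 18 alternative fits.

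At P4 the slow troponin T was concentrated in atrial-like CMs. These had more summed UMIs of the atrial markers Myl7, Sln and Mybphl than of the ventricular markers Myl2 and Myl3. Atrial-like cells were 58 of 154 and 55 of 170 CM-like cells, although the protocol names ventricle pieces. Tnnt1 stood at 232 and 239 CPM in them and at 29.3 and 57.4 in the ventricular-like rest, with no overlap between the 2 chips' values, which come from the same mice and are given without a test. The Tnni1 share of troponin I went the other way, at 23.3 and 20.6% in atrial-like and 33.7 and 28.5% in ventricular-like cells. Only 1 P7 cell and no P14 or P28 CM-like cell was atrial-like. Without atrial-like cells the Tnnt1 change from P4 to P14 was -1.57 (adjusted p = 0.420 by edgeR) and that from P4 to P7 was -0.38 instead of -1.83. The change from P4 to P28 turned from -0.45 to +0.94, neither of them called.

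Tnnc1, the calcium sensor of the complex, was read at 5683 and 8459 CPM in the P4, 4118 and 6560 in the P7, 2241 and 2728 in the P14 and 2577, 3249 and 7047 in the P28 sums. The P14 values were the lowest together with P28 chip 1, and P4 and P28 overlapped. No Tnnc1 contrast was called, with -0.70 ± 0.57 from P4 to P14 as the largest (adjusted p = 0.591 by edgeR).

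P28 chip 5 stood apart in Tnni1 and Tnnt1 at once. By animal, its 2 mice had Tnni1 levels of 21.7 and 25.8 CPM and Tnnt1 levels of 175 and 173 CPM in CM-like cells, while the other 3 P28 animals had 1.05, 1.49 and 3.14 Tnni1 and 22.3, 5.94 and 28.3 Tnnt1. The same chip had the most Acta1, the skeletal actin of the fetal heart, at 801 TMM CPM against 39.7 and 19.3 on chips 1 and 3. Its atrial marker sum was 540 CPM against 37.3 and 48.0, and 49.9% of its UMIs were mitochondrial against 70.2% and 66.9%. The names of its 2 mice carry the tag 24D, which those of the other 3 P28 animals lack. The labels give all of them the age P28 and do not explain the tag. Mice, chip and preparation cannot be told apart here.

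UMIs of troponin genes were also found in cells that should lack them. At P4, endothelial-, fibroblast-, mural- and macrophage-like cells held 564 to 815 Tnni1 CPM against 3305 in CM-like cells, and 1784 to 2338 Tnni3 CPM against 8985. The Tnni1 share of troponin I UMIs in these classes was 23.9 to 25.9% at P4, next to 26.9% in CM-like cells, and 9.70 to 15.6% at P7, next to 9.61%. After thinning to 1000 UMIs, 28.1 to 36.1% of the cells of other classes had a Tnni1 UMI at P4 and 14.6 to 17.3% at P7, against 80.2% and 53.8% of CM-like cells. Median depths before thinning were 27123 UMIs in CM-like and 10948 to 14707 in other cells at P4, and 39146 and 14038 to 22928 at P7. At P14 Tnni3 was still seen in 31.4 to 79.2% of thinned cells of other classes, and at P28 in 21.1 to 32.3%. Negative control wells, which received no cell, held 346 Tnni3, 55 Tnnt2 and 1 Tnni1 UMIs over 60 wild-type wells with 11426 UMIs in all. Shares of cells of other classes are therefore read as background and not as expression, and that background contributes to the CM-like values by an amount that was not tested. It followed the stage: Tnni1 was at 0 to 1.99 CPM in other classes at P14, next to 0.823 in CM-like cells, so the P14 CM-like level is not above background. At P28 other classes held up to 3.44 CPM, next to 5.24 over all CM-like cells, and chips 1 and 3 at 1.24 and 2.89 lay within that background. In the knockdown they held up to 1.37 CPM with shNT and 1.17 with shJun, next to 0.364 and 1.10 in CM-like cells.

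**Figure D3:**
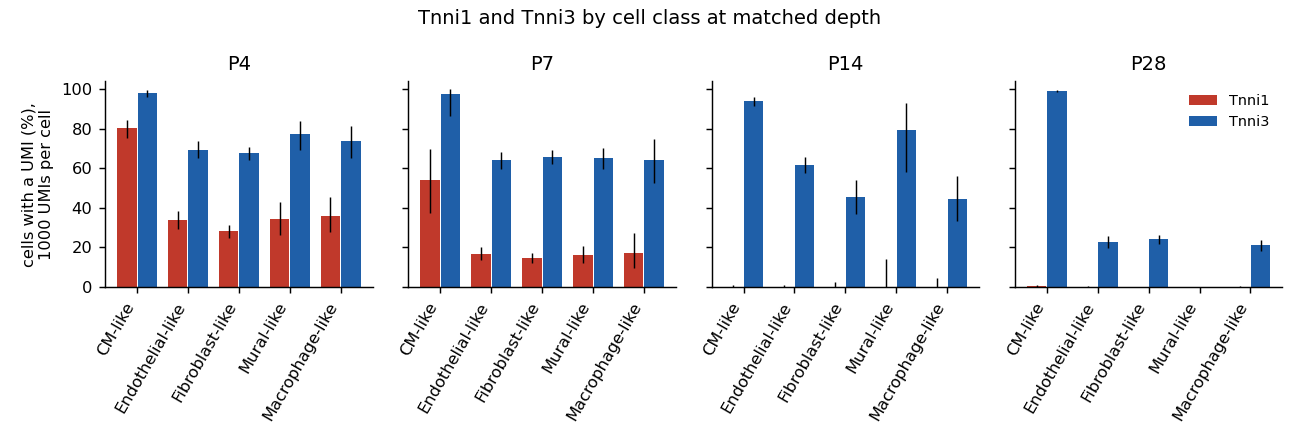
Percent of cells with at least 1 UMI of Tnni1 (red) or Tnni3 (blue) after thinning each cell to 1000 UMIs, by cell class and stage, with exact 95% intervals for counting error only. At P4, 80.2% of CM-like cells and 28.1 to 36.1% of cells of the other classes have a Tnni1 UMI, and at P14 and P28 nearly none do; no P28 cluster was named mural-like.

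Genes of the thin filament and its regulators were taken from 3 lists. Of 13 further thin filament genes (actins, tropomyosins and the proteins that cap or set the length of the filament), 12 were tested. Lmod2, leiomodin 2, which lengthens thin filaments, was the 1 called and rose from P4 to P14 by 2.15 ± 0.49 on the log2 scale (adjusted p = 0.0293 by edgeR), 1 of 12 beside 1.36% of all genes in that contrast. Its TMM CPM were 98.9 and 115 in the P4, 152 and 133 in the P7, 382 and 570 in the P14 and 234, 352 and 387 in the P28 sums, and P4 did not overlap with any later stage. The call was lost without either P4 chip (2.00 and 2.23, adjusted p = 0.344 and 0.279), without either P14 chip (adjusted p = 0.0509 and 0.166) and with CMs called cell by cell. Of 10 kinases known to phosphorylate or bind troponin I, 9 were tested and Prkg1, cGMP-dependent protein kinase, was the 1 called, beside 2.3% of all genes. It fell from P4 to P28 by 3.06 (SE 0.66, adjusted p = 0.0162 by edgeR), from 65.1 TMM CPM in both P4 sums to 3.93, 15.1 and 3.998 on P28 chips 1, 3 and 5. Without either P4 chip its change was -3.07 and -3.05 (adjusted p = 0.133 and 0.111 by edgeR), and without P28 chip 1 or 5 -2.73 and -2.69 (adjusted p = 0.117 and 0.0887), so these fits and that with CMs called cell by cell did not call it. Of 9 splicing factors that act on cardiac troponin T transcripts, 8 were tested and none was called in a stage contrast. Median log2 changes from P4 to P14 were -0.19 for the thin filament, -0.68 for the kinases and 0.42 for the splicing factors, beside -0.05 over all genes tested. From P4 to P28 they were 0.07, -0.58 and -0.31, beside 0.00.

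The genes whose levels over the 9 stage sums were most like those of Tnni1, among 2389 genes with a mean of at least 50 TMM CPM, were Gm12966 (Pearson r = 0.978 of log2 TMM CPM), Myl9, Ssr2, Cited1 and Tceal8 (r = 0.954). Myl9, a regulatory light chain of smooth muscle and non-muscle myosin, went from 652 and 915 TMM CPM at P4 to 4.72 and 27.3 at P14. For Tnni3 they were Cavin4 (r = 0.961), Cox4i1, Tnnt2 (r = 0.883), Uqcc2 and Ndufb10 (r = 0.871), of which Cox4i1, Uqcc2 and Ndufb10 belong to the respiratory chain or its assembly. The sums share chips, depth and stage, and these correlations are descriptions.

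The CM and NCM fractions of P28 hearts were compared over all passing cells of chips 1, 2, 5 and 6, whatever the cells were. All 5 tested members were higher in the CM fraction, where 7.31% of 15934 genes were called, 5.12% higher and 2.19% lower. Tnni3 was read at 6025 and 10158 CPM on the CM chips and 595 and 428 on the NCM chips, a log2 difference of 4.69 ± 1.05 (SE, adjusted p = 0.0200 by edgeR). For Tnnt2 the values were 6181 and 13604 against 476 and 505, and the difference was 5.02 ± 1.13 (adjusted p = 0.0207 by edgeR). For Tnnc1 they were 2393 and 7035 against 325 and 372, with a difference of 4.45 ± 1.01 (adjusted p = 0.0212 by edgeR). None of the 3 genes overlapped between the fractions. Without NCM chip 2 or 6 none was called, with differences of 4.20 to 5.33 and adjusted p between 0.294 and 0.427 (edgeR). CM-like cells made up 87.3% and 98.1% of the CM chips and 0.206% and 0.796% of the NCM chips, and fewer CMs and less troponin RNA per cell cannot be told apart in such sums.

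The slow isoforms were also higher in the CM fraction, on fewer UMIs. Tnni1 was read at 1.90 and 23.1 CPM on the CM chips and 0.424 and 0.930 on the NCM chips (22, 125, 6 and 8 UMIs), and the log2 difference was 4.91 ± 1.27 (adjusted p = 0.0373 by edgeR). Tnnt1 was at 15.6 and 176 against 3.75 and 10.4, a difference of 4.43 ± 1.05 (adjusted p = 0.0250 by edgeR). Both calls were lost without chip 5, with differences of 1.95 and 1.57 (adjusted p = 0.781 and 0.501 by edgeR). With the shared animals as a block all 5 calls held (adjusted p between 3.08e-07 and 0.00142). Tnnt3 was too low to be tested, with 4, 13, 12 and 4 UMIs on chips 1, 2, 5 and 6.

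At P14 both fractions of 1 mouse were on 1 chip. Tnni3 was at 4644 CPM in CM wells and 604 in NCM wells of the first mouse and at 4923 and 205 in the second. Tnni1 was at 17 and 12 UMIs in the first mouse and at 1 and 0 in the second, so at P14 the fractions could not be told apart for this gene at this depth. P28 chips 3 and 4, which the reports give no fraction name, had 9808 and 272 Tnni3 CPM, and 99.7% and 0.341% of their cells were CM-like.

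**Figure D4:**
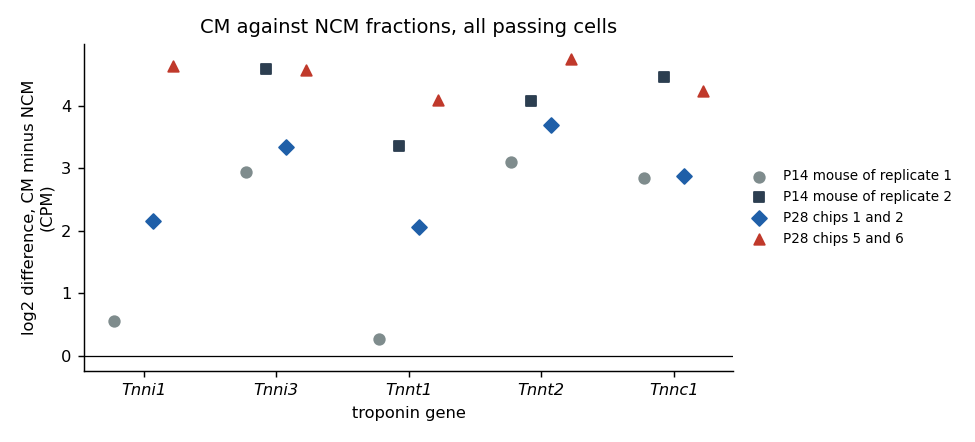
Log2 difference of CPM between the CM and NCM fractions over all passing cells, for 5 troponin genes, in 2 P14 mice (wells of 1 chip each) and 2 pairs of P28 chips. Points above 0 are higher in the CM fraction, as are all shown; Tnni1 of the second P14 mouse is missing because its NCM wells had 0 UMIs.

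The knockdown asks whether silencing Jun after birth altered CMs at P28. Jun itself was at 25.7 and 30.3 TMM CPM in CM-like sums of the 2 shJun animals and at 53.1 and 65.8 in those of the 2 shNT animals, a log2 difference of -1.09 ± 0.23, in the direction of the labels but not called (adjusted p = 0.9999 by edgeR). None of 17385 genes was called by edgeR (0%), against 609 at an unadjusted p under 0.05 and 9 by DESeq2. All 6 members were tested and none was called.

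Tnni3 was at 22582 and 14250 CPM in shJun animals 1 and 2 and at 19747 and 15577 in shNT animals 1 and 2. The groups overlapped and the difference was -0.00 ± 0.31 on the log2 scale with a 95% interval of -0.75 to 0.74. Tnnt2 was at 12705 and 12302 with shJun and at 14289 and 14428 with shNT. Its difference was -0.26 ± 0.22 with an interval of -0.80 to 0.27 (adjusted p = 0.9999 by edgeR, and 0.743 with the shared chips as a block). Tnnc1 was at 4004 and 3965 against 3851 and 3800, with a fitted difference of -0.01 ± 0.20. Tnnt1 was at 35.7 and 27.5 against 34.5 and 23.8, with a difference of 0.06 ± 0.29. Tnni1 was scarce in both groups, with 12 and 98 UMIs in the shJun animals (0.307 and 1.61 CPM) and 26 and 14 in the shNT animals (0.371 and 0.351), against 1.05 to 25.8 CPM in the wild-type P28 animals. Its difference was 1.35 ± 0.94, with shJun animal 2 alone above the others. Summed by hairpin, these levels did not exceed the highest of the other cell classes. No change of the neonatal isoform was detectable at this size of the study, and the interval of -0.92 to 3.61 is wide.

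Chips 1 to 4 each held CM-like cells of 1 shJun and 1 shNT animal, so the hairpins can also be set side by side within a chip. Tnnt2 was lower with shJun on all 4 chips, by -0.22 to -0.29 on the log2 scale. On chip 1 its levels were 11420 (shJun) and 13742 (shNT) CPM, on chip 2 13635 and 16723, on chip 3 12742 and 14887, and on chip 4 11935 and 14100. Tnni3 too was lower on all 4 chips, by -0.12 to -0.20, at 12068 and 13888, 30056 and 32560, 14801 and 16231, and 13787 and 15086. Tnnc1 was higher on all 4, by 0.01 to 0.15. Tnnt3 was lower on all 4, by -0.29 to -1.005, on 7 to 84 UMIs. Tnnt1 was higher on 3 of 4 chips. So was Tnni1, and on chip 2 its sign rests on 4 against 2 UMIs, the latter under the floor of 3 counts. Its shJun levels were 0.494 and 0.175 CPM on chips 1 and 2, and 1.43 and 1.77 CPM on chips 3 and 4. Other classes, summed over all shJun cells, reached 1.17 CPM, which the levels on chips 3 and 4 exceeded. Jun was lower on 4 of 4, by -0.59 to -1.66. The 4 chips stand for 2 pairs of animals, and these signs have no test of their own. The share of all genes with the same sign on all 4 chips was not computed.

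The Tnni3 difference within chips was not seen in the sum of animal 1, which was higher with shJun, whereas animal 2 was lower with shJun in the sum as on its chips 3 and 4. Chip 2 had a higher Tnni3 level than chips 1, 3 and 4 with either hairpin. It gave 58.5% of the CM-like UMIs of shJun animal 1 but 34.8% of those of shNT animal 1. Chip 5, with 82 CM-like cells, had a lower Tnni3 level, at 8659 CPM. It gave 0.106% of the CM-like UMIs of shJun animal 1 but 12.5% of those of shNT animal 1. Without the cells of chip 2 the fitted Tnni3 difference was -0.17 and that of Tnnc1 turned to +0.085, neither of them called. With CMs called cell by cell, 881 and 1094 cells of the shJun animals and 1133 and 1310 of the shNT animals entered in place of 773, 751, 1017 and 569, and the Tnni3 and Tnnt2 differences were 0.11 and -0.17, also not called.

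**Figure D5:**
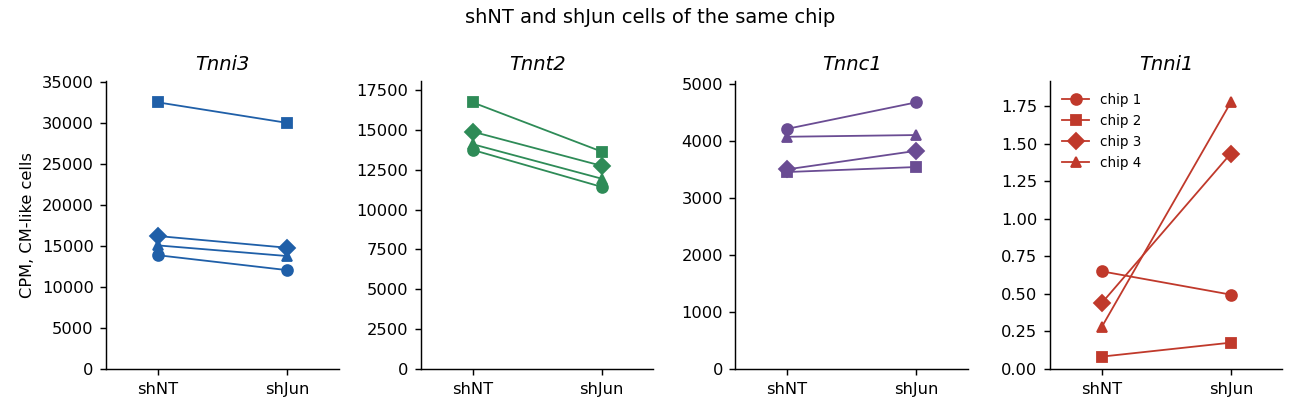
CPM in CM-like cells of shNT and shJun animals on the same knockdown chip, for Tnni3, Tnnt2, Tnnc1 and Tnni1 (axes from 0, each panel on its own scale). Each line joins the 2 hairpins of 1 chip, and the 4 chips hold 2 pairs of animals. Tnni3 and Tnnt2 are lower with shJun on all 4 chips, and chip 2 is the highest for Tnni3 with both hairpins.

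Tnnt3, the fast skeletal troponin T, was scarcely read in heart cells. It had 2306 UMIs in 19822 passing cells and at least 1 UMI in 262 of them. CM-like stage sums held 0 to 12 UMIs, and the gene was not tested across stages. In the knockdown its difference was -0.76 ± 0.67 (37 and 36 UMIs with shJun, 102 and 41 with shNT), and -3.96 with CMs called cell by cell, neither of them called. Of all its UMIs 56.4%, or 1300, came from 1 shNT cell, and the next cell had 176. That cell also had 804 UMIs of Myh1, 1941 of Myh2 and 105 of Myh4, the fast myosin heavy chains of skeletal muscle, beside 1865 of Tnni3 and 1031 of Tnnt2. Of the 16 cells with at least 10 Tnnt3 UMIs it was the 1 with UMIs of these myosins, and 8 of the 16 were fibroblast-like.

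In the knockdown no gene of the thin filament, kinase or splicing lists was called. Their median log2 differences were 0.04, 0.09 and -0.19, beside 0.00 over all genes. Between the P28 fractions, over all passing cells, 7 of 12 tested thin filament genes were higher in the CM fraction, beside 5.12% of all genes, among them Lmod3 (5.78 ± 0.71) and Lmod2 (5.50 ± 0.67). So were 3 of 10 kinases, with Prkaa2, a catalytic subunit of AMP-activated kinase, at 4.57 ± 0.73 and the cardiac kinase Tnni3k at 3.94 ± 0.83. Of 9 splicing factors, Rbm24 (4.06 ± 0.86) and Rbm20 (3.61 ± 0.86) were higher, and both are muscle splicing regulators.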

How the data were processed

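Polyadenylated RNA of single cells was read on ICELL8 chips. The matrices the authors deposited hold raw counts, each the number of distinct UMIs of a gene in a well, and well reports give counts of reads and UMIs and each well's type, animal and hairpin. Per the labels and the study's methods, reads were aligned to mm10 with STAR 2.5.2b and assigned to genes with featureCounts (Subread 1.4.6-p1). UMIs were collapsed, and nothing was normalized. Spike-ins, the reporter and 35 mitochondrial genes stayed out of totals and tests. Samples were grouped by the labels' age, and cells of the mixed knockdown chips by the well reports.

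A cell passed with at least 500 genes and a log10 UMI count within 2 SD of its group's mean. Cells were scaled to 10000 UMIs and clustered per stage or animal (10 components, 30 neighbours, leidenalg 0.10.2 in Python 3.11.15, resolution 0.8 for stages and 1.0 for animals) without the troponin and thin filament genes. A class name needed 3 markers in 20% of cells and a mean log2 fold of 0.2. A cluster with median UMIs far below those of its chips, and with no marker of its class among its leading genes, was left unnamed. The need for Alas2 or Slc4a1 to name erythroid cells, and the rule that leaves a cluster with more markers of another class unnamed, were set after the clusters were seen. No doublet caller was run, since the study's methods describe imaging of wells to choose single cells. Sums of CM-like cells (at least 10 per chip for stages, 20 per animal for the knockdown) and, for fractions, of all passing cells entered edgeR 4.0.16 (R 4.3.3; glmQLFTest, TMM, filterByExpr, Benjamini-Hochberg threshold 0.05). DESeq2 1.42.0, no filter, other cell limits, thinning, other CM calls, blocks and leaving out each sum were alternatives. Standard errors were computed as the size of the log2 change over the square root of F, and each value after ± is an SE. Scripts were tested on simulated data. CPM are UMIs per 1000000 UMIs of nuclear genes, and TMM CPM are scaled further. Intervals are exact at 95%, cover counting error only, and a floor is 3 counts. Where nothing says that chips hold separate animals, p-values measure only the spread between chips, and both P4 chips, like both P7 chips, share mice.

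The pairing of knockdown animals comes from the chips they share in the well reports. Deviations of shJun and shNT animal 1 from their group means correlated at r = 0.33 over 17385 genes. The members (6 genes) were described in every comparison. From 3 lists the 2 genes with the smallest p per comparison were eligible for naming, and for Tnni1 and Tnni3 the 5 genes of highest correlation. Members, lists and tests were chosen with earlier results of these data known.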

Additional observations from a re-analysis of the deposited data

Results flagged for a closer look

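Outlying chips were sought in the CM-like cells of the 4 knockdown chips that hold both hairpins. In 3 of 12 sets of values (6 genes, 2 hairpins), 1 chip lay far from the other 3. Chance gives about 1 in 20 for independent values. These are not independent, since the chips hold 2 pairs of animals and chip 2 was flagged for Tnni3 with both hairpins. The count can therefore not be set against that rate. Tnni3 on chip 2 was the highest with shJun, at 30056 CPM against 12068 to 14801, a gap of 0.848 of the whole range. With shNT it was 32560 against 13888 to 16231, a gap of 0.874 of the range. Tnnt1 on chip 1 was the highest with shJun, at 46.4 CPM against 26.4 to 28.5, a gap of 0.894 of the range.

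Tnnt3 was high in 2 unnamed clusters of knockdown animals that no comparison uses. In a cluster of 250 cells of shNT animal 2 it reached 136 CPM (1320 UMIs), against 1.03 in the CM-like cells of that animal, and the cell with 1300 of these UMIs is the one with skeletal myosins described above. In a cluster of 273 cells of shJun animal 1 it reached 14.2 CPM, against 0.946 in CM-like cells, and 2 cells held all of its 120 UMIs. An endothelial-like cluster of 372 cells of shNT animal 1 was close to that, at 13.3 CPM (182 UMIs in 7 cells).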

How the results depend on the processing

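The Tnni1 calls for P14 against P7, P14 against P4 and P28 against P4 held in every alternative run, and the ratio of Tnni1 to Tnni3 kept its direction, with differences of 9.12 to 10.2 (p = 0.00606 to 0.0357, exact permutation tests) and 8.97 to 10.5 when each sum was left out in turn. Counts over all genes moved. With DESeq2 they were 303 (P7 against P4), 1336 (P14 against P7), 39 (P28 against P14), 904 (P14 against P4), 924 (P28 against P4), 9 (knockdown) and 2018 (CM against NCM). Without the filter on low counts they were 151, 673, 49, 493, 580 and 405 in the first 6 of these. Sums of at least 20 cells gave 27 (P7 against P4), 11 (P28 against P14), 612 (P14 against P4) and 728 (P28 against P4). Cells thinned to at most 5000 UMIs gave 3 (P7 against P4), 177 (P14 against P7) and 13 (P28 against P14). Sums per animal gave 4 (P7 against P4), 2 (P28 against P14) and 681 (P28 against P4). Cells with at least 1000 genes gave 5 (P7 against P4) and 207 (P28 against P4), CMs called cell by cell 83 (P14 against P4) and 103 (P28 against P4), and removal of atrial-like cells 5 (P7 against P4) and 120 (P14 against P4). Troponin genes called for P14 against P4 were 2 with DESeq2, with no filter and with 20 cells, Tnnt1 being added, and 1 for P28 against P14 with no filter. Leaving out each sum in turn, genes called ranged from 2 to 173 (P7 against P4), 123 to 764 (P14 against P7), 0 to 11 (P28 against P14), 37 to 612 (P14 against P4), 40 to 729 (P28 against P4), 0 to 249 (knockdown) and 895 to 2080 (CM against NCM), and troponin genes called from 1 to 2 (P14 against P4) and from 2 to 5 (CM against NCM). Except as stated, causes were not tested.

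With the replicate block of shared chips, 15 genes were called in the knockdown, none of them a troponin, and with the replicate block of shared animals, added after the data were seen, 2334 between fractions, including the 5 troponins. The block changed no other troponin call. Leaving out the cells of chip 2 and using only chips 1 to 4 were also added after the data were seen.

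Members that were not called changed sign. With CMs called cell by cell, the log2 change was -0.39 for Tnni3 and -0.37 for Tnnt2 (P7 against P4), 0.58 for Tnnc1 (P14 against P7), 0.010 for Tnni3 (P28 against P14), 0.027 for Tnnc1 (P28 against P4), and 0.11 for Tnni3, -0.051 for Tnnt1 and 0.092 for Tnnc1 in the knockdown. For P14 against P7, sums of at least 20 cells gave -0.012 for Tnni3 and -0.054 for Tnnt2, DESeq2 -0.023 for Tnnt2, and thinning 0.23 for Tnnc1. Without atrial-like cells Tnnt1 was 0.94 (P28 against P4), with at least 1000 genes Tnni3 was 5.32e-05 in the knockdown, and without chip 2 Tnnc1 was 0.085. When each sum was left out, ranges that crossed 0 were -0.085 to 0.64 for Tnni3 (P7 against P4), -0.012 to 0.55 for Tnni3, -0.054 to 0.20 for Tnnt2 and -0.63 to 0.19 for Tnnc1 (P14 against P7), -0.38 to 0.15 for Tnnt2 and -0.30 to 0.49 for Tnnc1 (P28 against P14), -0.040 to 0.69 for Tnni3 and -2.02 to 0.059 for Tnnt1 (P28 against P4), and -0.30 to 2.08 for Tnni1, -0.38 to 0.29 for Tnni3 and -0.18 to 0.32 for Tnnt1 in the knockdown. A fit without an arm's second animal assumes that the lone animal varies like the others.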
